A study of Mus musculus with 6 samples.

Results

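The immediate early and AP-1 factors described here are 10 of the 15469 genes in the table, taken by gene symbol: Fos, Fosb, Fosl2, Jun, Junb, Jund, Atf3, Egr1, Ier2 and Ier3. All 10 were listed, and all 10 had enough counts to be tested. They were measured by RNA sequencing in mouse peritoneal macrophages that had been sorted for surface RELM-α and then plated in culture medium. Of the 6 libraries, 3 were labelled KO (RELM-α+ macrophages described as PU.1-deleted) and 3 were labelled WT (RELM-α+ control macrophages), and all the donor mice were of the CAIA model, which the labels leave unexplained. No source used here gives the strain, age or sex of the mice, the means of deleting PU.1 or the time in culture. Nor is it stated whether replicates were separate animals, so the p-values measure the spread between these samples only.

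AP-1 is a dimeric transcription factor built from a JUN protein and a partner of the JUN, FOS or ATF families, joined through leucine zippers. FOS proteins cannot pair with one another and need a JUN partner, whereas JUN proteins can also pair among themselves. Many genes of this group are immediate early genes, which MAP kinases and the serum response factor or CREB switch on within minutes and without new protein synthesis, and whose transcripts are short-lived. In macrophages they answer growth factors, microbial products, adhesion and the handling of cells.

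The libraries held 17280855 to 18632623 counts. Spi1, the gene of PU.1, was at 276.9, 285.5 and 319.7 CPM in the KO libraries and at 323.4, 340.2 and 283.7 CPM in the WT libraries, where CPM is the count scaled to a library of fixed size. Its log2 difference was -0.10 (95% interval -0.363 to 0.156; edgeR adjusted p = 0.561), so no loss of the transcript was seen, and whole-gene counts cannot show the loss of an exon. KO and WT are therefore the labels' names throughout. In addition, 4 Y-linked genes together had 8, 1 and 3 counts in the KO libraries and 2158, 2164 and 2854 in the WT libraries, so the label cannot be told apart from a difference in Y chromosome between the sources. KO replicate 1 stood apart: across genes its log2 CPM correlated at 0.902 and 0.922 with KO replicates 2 and 3 but at 0.955 to 0.959 with the WT libraries. The summed level of 7 macrophage markers was 19432 CPM in KO replicate 1, 41972 to 43542 CPM in KO replicates 2 and 3, and 34782 to 39321 CPM in the WT libraries. None of these markers was at 0 in all libraries. Gata6, the factor of large resident peritoneal macrophages, was not analysed here, and the other 4 markers of that type summed to 4.07 to 6.25 CPM in KO and 3.93 to 4.2 CPM in WT libraries.

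Over all 6 libraries, no member passed the main test. The edgeR quasi-likelihood test called 0 of 10 members at an adjusted p under 0.05, while 379 of all 11424 genes tested, or 3.32%, were called (2.26% higher and 1.06% lower in KO). A single member, Atf3, had an unadjusted p under 0.05 and was lower in KO, as were 7.76% of all genes (22.7% in either direction). By limma-voom 0 members were called, against 2.93% of all genes (1.9% higher, 1.03% lower). By DESeq2 1 member was called, Atf3, against 10.8% of all genes with an adjusted p (7.12% higher, 3.69% lower). The median log2 difference of the members was -0.19, beside -0.01 over all genes tested. In bulk RNA, fewer cells of a type and less RNA per cell cannot be told apart.

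The members differed from one another in where KO replicates 2 and 3 lay. Fos, Fosb, Egr1, Ier2, Ier3 and Atf3 were lower in KO replicates 2 and 3 than in each of the other 4 libraries, a pattern of 30.0% of all genes tested. Fosl2, Jun, Junb and Jund did not show it. Without KO replicate 1, edgeR called those 6 members lower and none higher, against 26.0% of all genes lower and 23.6% higher in the same fit (5793 of 11677 genes, or 49.6%, in either direction). With a correction for GC content and length added, 7 members were called, all lower, against 51.4% of all genes (30.6% higher, 20.8% lower). Summed markers of other cell types also separated KO replicates 2 and 3: 4 neutrophil markers were at 5.67 CPM in KO replicate 1, 1.98 to 2.41 CPM in KO replicates 2 and 3 and 7.75 to 8.95 CPM in the WT libraries. Likewise 4 platelet markers were at 54.1 CPM in KO replicate 1, 16 to 17.1 CPM in KO replicates 2 and 3 and 57.1 to 99.1 CPM in the WT libraries, with 2 of 4 called lower over the 6 libraries. Their part in the members' levels was not tested.

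**Figure D1:**
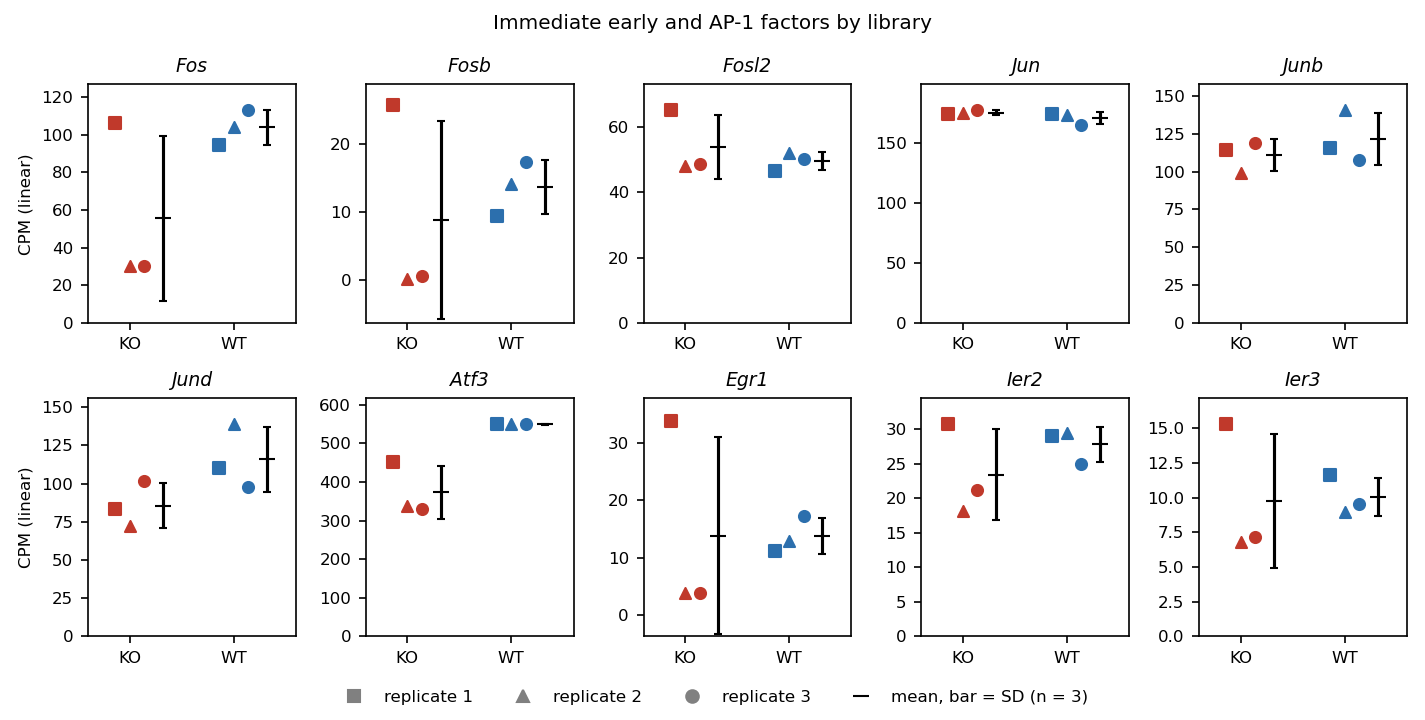
CPM of the 10 members on linear axes, with KO libraries left and WT libraries right in each panel, 1 symbol per replicate number, and the mean with its SD (n = 3) beside each group. KO replicate 1 (square) lies far above KO replicates 2 and 3 for Fos, Fosb and Egr1, while the 6 libraries lie close together for Jun, between 165.5 and 178 CPM.

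In the WT macrophages Atf3 was the most abundant of the 10 transcripts per unit length. Levels between genes are compared in TPM, a share of all transcripts that the authors scaled for gene length. Atf3 averaged 478.8 ± 23.3 TPM (SD, n = 3), at the 98.3rd percentile of all genes in the table. Below it came Junb at 114.5 ± 14.7, Jun at 87.6 ± 1.7, Fos at 84.2 ± 11.4, Jund at 66.1 ± 11, Ier2 at 32.8 ± 1.79, Ier3 at 18 ± 2.04, Fosl2 at 13.3 ± 1.17, Egr1 at 7.37 ± 2.06 and Fosb at 5.92 ± 1.98 TPM. The 3 WT values of neighbours in this order overlapped for Jun with Fos, Fos with Jund, and Egr1 with Fosb, and for no other neighbours.

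The order differed at few places in the KO libraries. In KO replicate 1 it was Atf3, Junb, Jun, Fos, Jund, Ier2, Ier3, Egr1, Fosl2 and Fosb, with Egr1 ahead of Fosl2. In KO replicates 2 and 3 Fos averaged 26.4 TPM and came after Jund (53.4 TPM). Fosl2 (13.9 TPM) came ahead of Ier3 (13.6 TPM), with overlapping values. Fosb stayed last but averaged 0.2 TPM, at the 22.8th percentile of all genes. Atf3, Junb and Jun were the 3 highest in each of these orders.

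Fos (chr12:85473890-85477274, plus strand, GRCm38.p6) encodes the prototype FOS subunit of AP-1. It had 106.3, 30.2 and 30.5 CPM in the KO libraries, against 94.6, 104 and 113.2 CPM in the WT libraries. KO replicate 1 lay among the WT libraries, and KO replicates 2 and 3 lay far below all of them, so the groups overlapped. The log2 difference was -0.90 (SE 0.533, 95% interval -2.22 to 0.42; edgeR adjusted p = 0.351). Without KO replicate 1 it was -1.76 (SE 0.106, adjusted p = 1.75e-05), a fold of 0.295.

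Fosb (chr7:19302696-19310118, minus strand), a FOS subunit whose gene also yields the truncated ΔFOSB, had the widest spread of the 10. It had 25.8, 0.205 and 0.625 CPM in the KO libraries and 9.48, 14.2 and 17.5 CPM in the WT libraries. KO replicate 1 was the highest of the 6 libraries, and KO replicates 2 and 3 were the lowest. These values rest on 468, 4 and 12 counts in the KO libraries, with exact 95% Poisson intervals of 1.09 to 10.2 for the 4 counts and 6.2 to 21 for the 12. KO replicates 2 and 3 together had 16 counts and the WT libraries 699, a ratio per count sequenced of 0.0333 (exact 95% interval 0.0189 to 0.0545). These intervals cover counting error only, because PCR copies of a molecule were not marked as such. With all 6 libraries the log2 difference was -0.63 with a 95% interval of -4.34 to 3.07 (edgeR adjusted p = 0.806), and without KO replicate 1 it was -5.01 (SE 0.451, adjusted p = 0.000176). The size over 6 libraries depended on the method, at -3.13 by limma-voom and at -1.31 and -2.52 on TPM with pseudocounts of 1 and 0.1, and none of these was called (adjusted p = 0.227, 0.396 and 0.313). Counts per gene do not separate the full-length and truncated forms.

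Fosl2, which encodes FRA-2, a FOS subunit that lacks the strong activation domain of FOS, was nearly level. It had 65.2, 48 and 48.7 CPM in the KO libraries and 46.5, 52 and 50.1 CPM in the WT libraries. Only KO replicate 1 lay outside the range of the WT libraries. Its log2 difference was 0.12 (95% interval -0.233 to 0.477; edgeR adjusted p = 0.613), and -0.02 without KO replicate 1 (adjusted p = 0.866). Its sign was also negative with a correction for GC content and length (-0.00707).

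Fosl1, which encodes FRA-1 and is the FOS subunit outside the group of 10, was close to the limit of detection. It had 10, 13 and 12 counts in the KO libraries and 7, 5 and 1 counts in the WT libraries. The groups did not overlap, as for 31.0% of all genes tested, and the ratio of totals per count sequenced was 2.67 (exact 95% interval 1.38 to 5.5, counting error only). It was not called by edgeR (adjusted p = 0.249). Exons of Fosl1 overlap those of Ccdc85b on the other strand, which was at 8.65 to 11.7 CPM over the 6 libraries. Since the strand setting is not stated, the few Fosl1 counts may include reads of Ccdc85b.

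The 250 bases before and 50 bases after the annotated start were searched in the 8 members that RefSeq's promoter table for GRCm38.p6 holds, all but Egr1 and Ier2, because 6 members were low together in KO replicates 2 and 3. The motifs, on both strands, were TGACG, the core of the cAMP response element bound by CREB and ATF proteins; the full element TGACGTCA, which contains that core; the AP-1 site TGANTCA; the CArG box of the serum response factor; and GAGGAA, a core of PU.1 sites. TGACG was found in Fos, Fosb, Atf3 and Junb, 4 of 8, and in 20.8% of all 32851 promoter windows. The full element, the AP-1 site and the CArG box were found in none of the 8 windows. They were found in 1.79%, 7.81% and 1.63% of all windows. Elements further from the start lay outside the search, and Egr1 and Ier2 had no window. The search therefore cannot show that a member lacks such an element. GAGGAA was found in Atf3 and Ier3, and in 28.3% of all windows. The 4 windows with TGACG are shown because they come from members that were low in KO replicates 2 and 3 (Fos, Fosb, Atf3) and from Junb, which was not. They are chr12:85473640-85473939 (plus strand) for Fos, chr7:19309996-19310295 (minus strand) for Fosb, chr1:191183284-191183583 (minus strand) for Atf3 and chr8:84978699-84978998 (minus strand) for Junb. Each is written 5′ to 3′ along its gene, and capitals mark TGACG or, on the opposite strand, CGTCA.
Fos: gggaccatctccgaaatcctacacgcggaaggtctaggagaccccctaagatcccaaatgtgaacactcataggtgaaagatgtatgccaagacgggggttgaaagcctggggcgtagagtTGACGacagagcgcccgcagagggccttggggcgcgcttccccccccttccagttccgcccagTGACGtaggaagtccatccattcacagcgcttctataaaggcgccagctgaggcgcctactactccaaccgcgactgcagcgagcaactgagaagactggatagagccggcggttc
Fosb: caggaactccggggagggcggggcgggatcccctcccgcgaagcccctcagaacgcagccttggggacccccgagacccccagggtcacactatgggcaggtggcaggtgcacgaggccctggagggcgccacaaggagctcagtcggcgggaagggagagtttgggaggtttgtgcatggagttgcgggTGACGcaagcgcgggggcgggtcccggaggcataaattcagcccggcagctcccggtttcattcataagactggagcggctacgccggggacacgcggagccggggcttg
Atf3: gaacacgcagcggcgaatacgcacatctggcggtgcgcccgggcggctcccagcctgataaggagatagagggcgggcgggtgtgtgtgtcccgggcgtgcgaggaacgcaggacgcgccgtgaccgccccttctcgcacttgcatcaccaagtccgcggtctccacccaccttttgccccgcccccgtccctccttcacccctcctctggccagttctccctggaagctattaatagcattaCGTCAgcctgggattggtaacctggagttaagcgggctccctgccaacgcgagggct
Junb: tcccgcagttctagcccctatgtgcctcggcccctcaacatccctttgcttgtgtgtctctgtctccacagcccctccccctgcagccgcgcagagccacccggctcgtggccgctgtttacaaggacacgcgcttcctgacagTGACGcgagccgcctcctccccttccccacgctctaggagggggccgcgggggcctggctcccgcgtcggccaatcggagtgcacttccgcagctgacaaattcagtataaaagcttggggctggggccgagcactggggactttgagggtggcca
Counted from the start site, the matches begin at -129 and -66 in Fos, at -60 in Fosb, at -106 in Junb and, on the opposite strand, at -7 in Atf3. Such a match is a stretch of letters and not evidence of binding, and the letters were present both in genes called lower without KO replicate 1 (Fos, Fosb, Atf3) and in one that was not called (Junb).

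The JUN subunits differed less between libraries than Fos and Fosb did. Jun (chr4:95049036-95052222, minus strand), an activating partner of FOS proteins, had 174.6, 175.1 and 178 CPM in the KO libraries and 174.6, 174 and 165.5 CPM in the WT libraries. The libraries formed almost a single level, although by a margin below the first decimal the groups did not overlap. Its log2 difference was 0.04 (SE 0.0705, 95% interval -0.135 to 0.21; edgeR adjusted p = 0.75), with the sign reversed by the GC and length correction (-0.0642). On the TPM scale, which divides by the total of all genes per length, Jun was at 104.9, 95.6 and 98.5 TPM in KO and at 85.8, 88 and 89.1 TPM in WT libraries, a difference of 0.18 in log2(TPM + 1) that was not called (limma adjusted p = 0.142).

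Junb, a JUN subunit with weaker activating capacity that restrains proliferation, had 114.5, 99 and 118.9 CPM in the KO libraries and 115.9, 140.7 and 107.6 CPM in the WT libraries. The groups overlapped widely. The log2 difference was -0.13 (95% interval -0.458 to 0.194; edgeR adjusted p = 0.554) and -0.14 without KO replicate 1 (adjusted p = 0.414). Its exons overlap those of Prdx2 on the other strand, and since the strand setting is not stated, reads of the 2 genes may be mixed. Prdx2 was at 121.3, 158.8 and 146.7 CPM in KO and at 157, 156.4 and 145.1 CPM in WT libraries. Exons of Jun and Jund likewise overlap those of Junos and Gm11175 on the other strand, neither of which has values here.

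Jund, the JUN subunit usually present in resting cells, had 83.2, 72 and 101.7 CPM in the KO libraries and 110.4, 139.3 and 98 CPM in the WT libraries. Most KO values lay under the WT values, with KO replicate 3 above WT replicate 3. The log2 difference was -0.44 (SE 0.183, 95% interval -0.885 to 0.012; edgeR adjusted p = 0.228). It was -0.40 without KO replicate 1 (adjusted p = 0.134), and the only setting that called it was the GC and length correction without KO replicate 1 (-0.45, adjusted p = 0.0186). The table gives Jund and Ier3 a range that mixes scaffold and chromosome positions, so their counts are less certain.

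The sums over each family, in TPM, show the same contrast. The FOS family (Fos, Fosb, Fosl1 and Fosl2) summed to 135, 40.7 and 41.8 TPM in the KO libraries and to 89.7, 103.1 and 118.3 TPM in the WT libraries. The JUN family (Jun, Junb and Jund) summed to 287.8, 239.7 and 283.1 TPM in KO and to 251.6, 298.3 and 255 TPM in WT libraries. The ratio of FOS to JUN family was 0.469, 0.17 and 0.148 in the KO libraries and 0.357, 0.346 and 0.464 in the WT libraries. KO replicate 1 thus had the highest ratio of the 6 and KO replicates 2 and 3 the lowest. Fosl2 made up 15.2%, 33.7% and 33.7% of the FOS family in the KO libraries and 13.3%, 13.4% and 11.9% in the WT libraries.

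**Figure D2:**
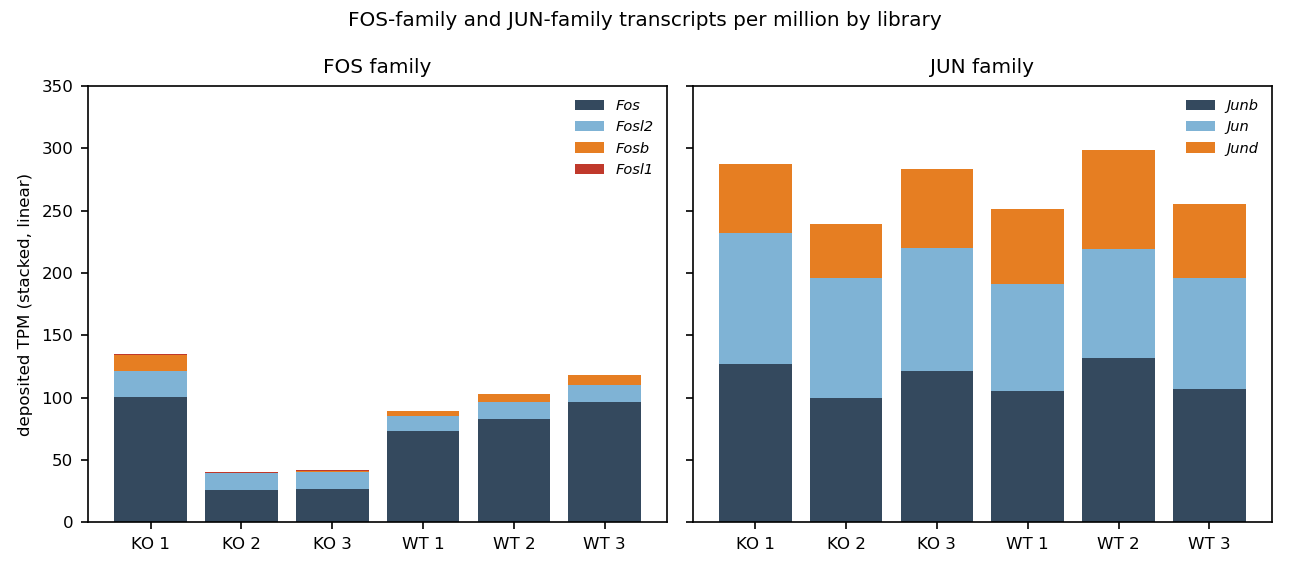
Stacked bars of deposited TPM by library, for the FOS family on the left and the JUN family on the right, on a shared linear axis from 0, with the KO libraries left of the WT libraries. The FOS bars are 40.7 and 41.8 TPM high in KO replicates 2 and 3 and at least 89.7 TPM in the other libraries, while the JUN bars lie between 239.7 and 298.3 TPM.

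Atf3 (chr1:191170296-191183333, minus strand), a stress-induced ATF factor that represses many inflammatory genes in macrophages, differed in the same direction in all 3 KO libraries. It had 451.4, 337.1 and 330.6 CPM in the KO libraries and 549.4, 549.3 and 551.6 CPM in the WT libraries. Every KO library lay below every WT library, as for 12.6% of all genes tested. The log2 difference was -0.56 (SE 0.139, 95% interval -0.901 to -0.22), a fold of 0.678, and edgeR did not call it (unadjusted p = 0.00684, adjusted p = 0.0892). DESeq2 did (adjusted p = 0.00934), and the authors' deposited table gives a log2 fold change of -0.57 with a q-value of 0.0116, where 8.02% of its genes have a q-value under 0.05 (2.73% lower in KO). Without KO replicate 1 the log2 difference was -0.71 (edgeR adjusted p = 0.000205), and without each of the other 5 libraries it was -0.59 to -0.51 (adjusted p = 0.216 to 0.302). In TPM the groups touched, with 461.1, 313.6 and 311.7 TPM in KO and 459.2, 472.7 and 504.6 TPM in WT libraries. Per library, the ratio of Atf3 to Fos in TPM was 4.57, 12 and 11.7 in KO and 6.25, 5.69 and 5.25 in WT.

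Egr1, a zinc finger factor induced through serum response elements, lay on both sides of the WT libraries in the KO libraries. It had 33.7, 3.9 and 3.96 CPM in the KO libraries and 11.1, 12.9 and 17.2 CPM in the WT libraries. KO replicate 1 was above every WT library and KO replicates 2 and 3 were below every one. The log2 difference over all 6 libraries was 0.01 with a 95% interval of -2.21 to 2.23 (edgeR adjusted p = 0.995), and by limma-voom it was -0.77, also not called. Without KO replicate 1 it was -1.79 (SE 0.214, adjusted p = 0.000375), a fold of 0.29.

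Ier2 and Ier3 are immediate early genes whose products are not bZIP factors, IER2 being a nuclear regulator of transcription and IER3 a stress-induced modulator of survival signalling. Ier2 had 30.8, 18.2 and 21.2 CPM in the KO libraries and 29, 29.5 and 24.9 CPM in the WT libraries. Its log2 difference was -0.25 (95% interval -0.768 to 0.271; edgeR adjusted p = 0.487) and -0.48 without KO replicate 1 (adjusted p = 0.0133). Ier3 had 15.4, 6.83 and 7.19 CPM in the KO libraries and 11.6, 9.01 and 9.55 CPM in the WT libraries. Its log2 difference was -0.04 (95% interval -0.903 to 0.823; adjusted p = 0.949) and -0.51 without KO replicate 1 (adjusted p = 0.0286). For both genes KO replicate 1 was the highest of the 6 libraries and KO replicates 2 and 3 the lowest.

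Fosb, Egr1, Ier2 and Ier3 thus share an order in which KO replicate 1 exceeded all WT libraries and KO replicates 2 and 3 lay under all of them, an order seen in 9.11% of all genes tested. The excess of KO replicate 1 over the mean of KO replicates 2 and 3 was 62-fold for Fosb, 8.58-fold for Egr1, 3.5-fold for Fos, 2.19-fold for Ier3 and 1.57-fold for Ier2. It was 1.35-fold for Atf3 and for Fosl2, and 0.989, 1.05 and 0.958 for Jun, Junb and Jund. On the log2 scale, with 0.1 CPM added to both levels, the excess of Fosb lay at the 99.99th percentile of all genes tested. The Fosb values in KO replicates 2 and 3 rest on 4 and 12 counts. The excess of Egr1 lay at the 99.6th percentile, whereas that of Jun lay at the 49th. KO replicate 1 is a single library, so these are descriptions with no test.

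**Figure D3:**
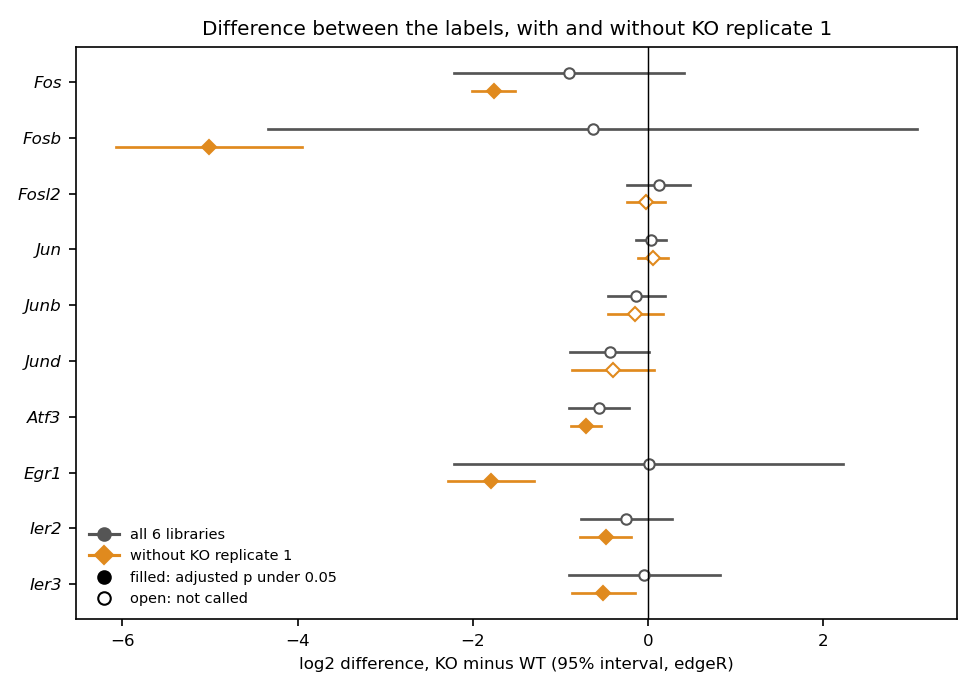
Log2 difference of each member, KO minus WT, with its 95% interval from edgeR, for all 6 libraries (circles) and without KO replicate 1 (diamonds), with filled symbols at an adjusted p under 0.05. No circle is filled, and the diamonds of Fos, Fosb, Atf3, Egr1, Ier2 and Ier3 are filled and lie between -5.01 and -0.48.

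The genes most like Fos, Jun and Atf3 over the 6 libraries were ranked by Pearson's r of log2 CPM among the 8279 other genes averaging 10 CPM or more. These r describe 6 libraries that fall into separate clusters, and they carry no test. Zc3h7a (r = 0.999), Zfyve28 (0.999) and Hyou1 (0.999) ranked highest with Fos. Zc3h7a, which encodes a zinc finger protein, had 85.9, 29.5 and 30.1 CPM in KO and 79.4, 85.5 and 96.5 CPM in WT libraries. Among the members, Fosb ranked 323rd with Fos (r = 0.982). For Jun they were Ino80e (0.991), Orai1 (0.986) and Rpl13a (0.985), and for Atf3 they were Rnaset2b (0.997), Creg1 (0.996) and Rwdd1 (0.995). Creg1, which encodes a secreted lysosomal glycoprotein, had 1930, 1259 and 1260 CPM in KO and 2397, 2282 and 2352 CPM in WT libraries. None of these 9 genes is another immediate early or AP-1 factor of the lists used here.

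Of the other AP-1 and CREB/ATF bZIP factors, none of 19 was called by edgeR. At an unadjusted p under 0.05, 1 of 19 was higher and 2 were lower, beside 15.0% of all genes higher and 7.76% lower. By limma-voom 0 were called. By DESeq2 1 was higher and 1 lower, beside 7.12% and 3.69% of all genes with an adjusted p. Their median log2 difference was -0.07. Batf3, the BATF-family partner of JUN proteins that dendritic cells need, had the smallest p, with 0.991, 0.976 and 1.15 CPM in KO and 2.67, 3 and 1.92 CPM in WT libraries (log2 difference -1.28, edgeR adjusted p = 0.0613). DESeq2 called it lower (adjusted p = 0.0134), as did edgeR with the GC and length correction (adjusted p = 0.0445). In the fit without KO replicate 1, 2 of the 19 were higher and 8 lower, beside 23.6% and 26.0% of all genes.

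Among 33 other immediate early genes tested of 36 in the table, 1 rose and 4 fell by edgeR. Of all genes tested, 2.26% were called higher and 1.06% lower. By DESeq2 5 were higher and 5 lower, beside 7.12% and 3.69% of all genes with an adjusted p. By limma-voom 1 was higher and 4 lower, beside 1.9% and 1.03% of all genes. Sgk1, a serum- and glucocorticoid-induced kinase, fell to 149.5, 122.1 and 124.6 CPM in the KO libraries, against 362.4, 358.8 and 419.3 CPM in the WT libraries (log2 difference -1.53, SE 0.12, edgeR adjusted p = 0.01). Gadd45g and Gadd45b, stress-induced genes of the GADD45 family, fell to 0.418 and 0.627 of the WT mean (adjusted p = 0.0301 and 0.0254). Klf10, a TGF-β-induced zinc finger repressor, fell to 0.699 of the WT mean (adjusted p = 0.0411), and Zfp36l1, an mRNA decay factor, rose 1.53-fold (adjusted p = 0.0389). Klf10 and Zfp36l1 were named after their values were seen. All 5 stayed called without KO replicate 1, where 7 of the 33 were higher and 13 lower, beside 23.6% and 26.0% of all genes. Without KO replicate 2 only Sgk1 stayed called among them (edgeR adjusted p = 0.0486), and without each of the other 4 libraries none did. These fits called only 5 to 15 of all genes.

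Of the 33 tested, 5 repeated the order of Egr1, with KO replicate 1 above and KO replicates 2 and 3 below all WT libraries. This order was seen in 9.11% of all genes tested. The genes named below were likewise chosen after their values were seen, and Egr3 is among the 5. Dusp1, the MAP kinase phosphatase that ends such signalling, had 56.7, 19.3 and 17.1 CPM in KO and 34.4, 47.9 and 51.5 CPM in WT libraries. Zfp36, which encodes the mRNA decay factor tristetraprolin, had 121.4, 52.7 and 54.4 CPM in KO and 103.3, 104.6 and 114.8 CPM in WT libraries. Nr4a1, an orphan nuclear receptor, had 17.9, 3.75 and 3.39 CPM in KO and 10.1, 9.65 and 10.8 CPM in WT libraries. Over the whole list, 10 genes had KO replicates 2 and 3 below all other libraries, which is close to the 30.0% of all genes tested. The EGR factors did not move as one: Egr3 had 15, 1.08 and 1.09 CPM in KO and 2.27, 2.48 and 3.66 CPM in WT libraries, whereas Egr2 had 22.8, 57.3 and 58.2 CPM in KO and 76.6, 112.8 and 107.8 CPM in WT libraries, with KO replicate 1 the lowest. None of Dusp1, Zfp36, Nr4a1, Egr2 and Egr3 was called over the 6 libraries (edgeR adjusted p = 0.535, 0.414, 0.805, 0.171 and 0.577).

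**Figure D4:**
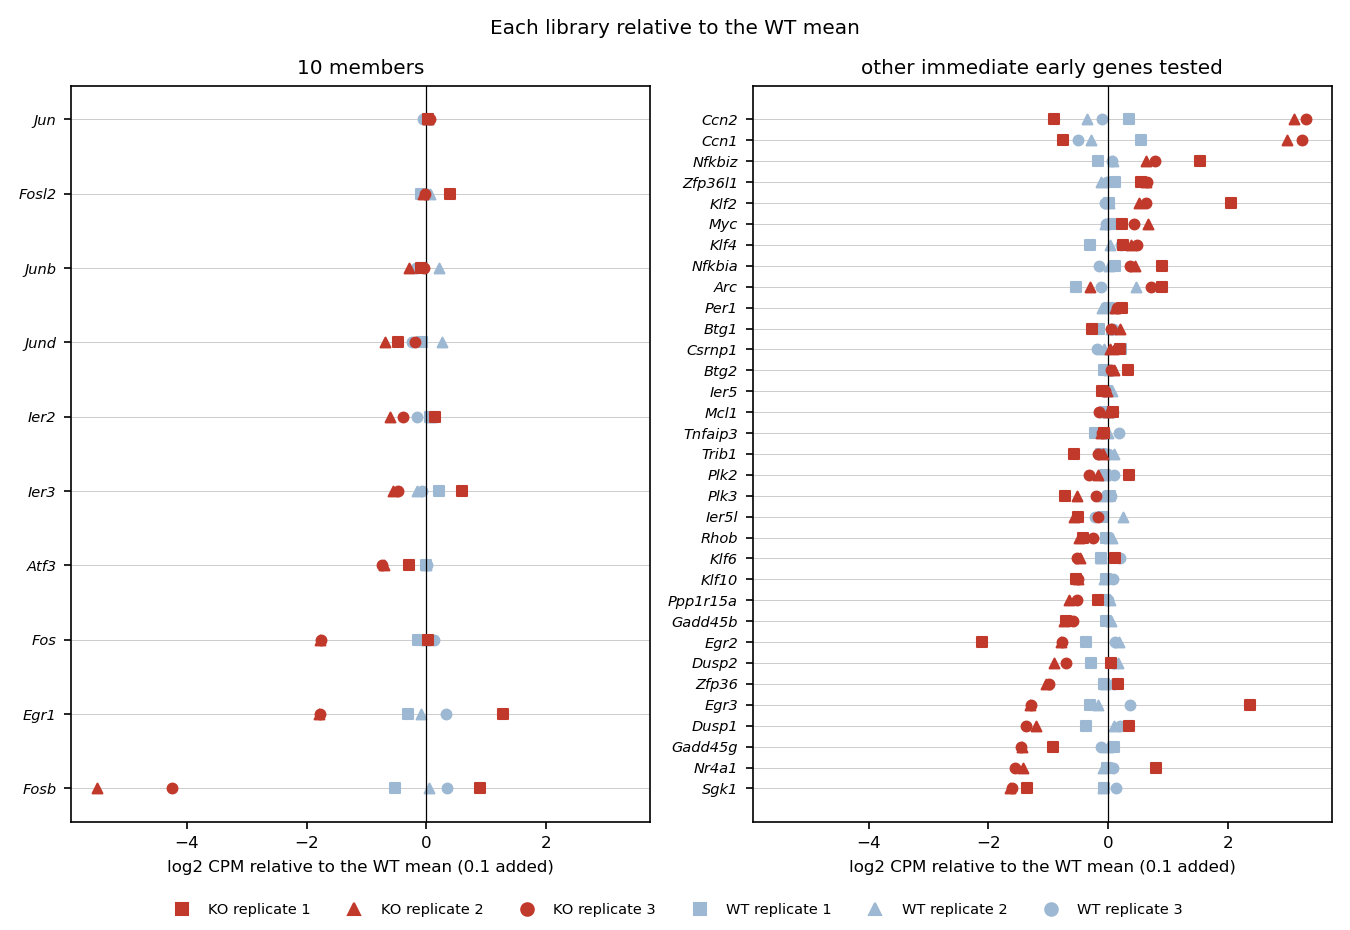
Log2 CPM of each library relative to the WT mean, after adding 0.1 CPM, for the 10 members (left) and the 33 other immediate early genes tested (right), with KO libraries in red and WT libraries in pale blue. The KO replicate 1 squares of Fosb and Egr1 lie right of 0 and the other KO symbols left of it, while the 3 KO symbols of Sgk1 lie together on the left.

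Upstream, the 25 MAP kinases and SRF or TCF factors held no called gene by edgeR. At an unadjusted p under 0.05, 4 of 25 were higher and 0 lower, beside 15.0% of all genes higher and 7.76% lower. By limma-voom 0 were called, and by DESeq2 2 were higher, beside 7.12% of all genes with an adjusted p. Mapkapk2, a kinase downstream of p38, had the smallest p, with 414.1, 338.7 and 349.9 CPM in KO and 280.6, 260.7 and 240.2 CPM in WT libraries (log2 difference 0.50, edgeR adjusted p = 0.0739). DESeq2 called it higher (adjusted p = 0.00836). Srf, the serum response factor itself, also named with its values known, was at 43.6, 45.1 and 51.5 CPM in KO and 46.3, 49.2 and 42.4 CPM in WT libraries, with no separation of the groups. In the fit without KO replicate 1, 5 of the list were higher and 4 lower, beside 23.6% and 26.0% of all genes.

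Among the inhibitors, 2 of 13 tested MAP kinase phosphatases, Sprouty proteins and NAB co-repressors rose and none fell by edgeR. Of all genes tested, 2.26% were called higher and 1.06% lower. Dusp4, a nuclear phosphatase of ERK and JNK, rose to 46, 40 and 34.6 CPM in the KO libraries, against 21.5, 17.8 and 22.5 CPM in the WT libraries (log2 difference 0.97, SE 0.152, edgeR adjusted p = 0.0387). Spred2, an inhibitor of RAS to ERK signalling, rose 1.71-fold (adjusted p = 0.0446). Both were called without KO replicate 1 (edgeR adjusted p = 0.00104 for each). Neither was called without any other single library, where only 5 to 15 of all genes were called. The list's median log2 difference was 0.13. In DESeq2 3 of the list were higher and none lower, beside 7.12% and 3.69% of all genes with an adjusted p. In limma-voom 1 was higher and none lower, beside 1.9% and 1.03% of all genes. Without KO replicate 1, 6 of the 14 tested in that fit were higher and 2 lower, beside 23.6% and 26.0% of all genes.

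Of 17 genes known as AP-1 targets, 1 rose and 2 fell by edgeR, beside 2.26% and 1.06% of all genes tested. Ccnd1, which encodes cyclin D1, rose to 90, 174.8 and 134.8 CPM in the KO libraries, against 29.2, 27.4 and 27.7 CPM in the WT libraries (log2 difference 2.24, SE 0.25, edgeR adjusted p = 0.0203). Mmp12, the macrophage elastase, fell to 1896, 923.6 and 1387 CPM in the KO libraries, against 3611, 4221 and 4673 CPM in the WT libraries (log2 difference -1.57, adjusted p = 0.0471), a change of -1.06 with the GC and length correction. Plaur, the urokinase receptor, fell to 0.537 of the WT mean (adjusted p = 0.0389). All 3 stayed called without KO replicate 1, where 8 of the list were higher and 5 lower, beside 23.6% and 26.0% of all genes. None stayed called without any other single library, where only 5 to 15 of all genes were called. In DESeq2 2 were higher and 2 lower, beside 7.12% and 3.69% of all genes with an adjusted p. In limma-voom 1 was higher and 2 lower, beside 1.9% and 1.03% of all genes. The list's median log2 difference was 0.41 by edgeR and -0.08 by limma-voom, so it has no steady sign.

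Heat shock and chaperone genes, which cells induce under protein-folding stress, held no called gene among 9 tested by edgeR. At an unadjusted p under 0.05, 2 of 9 were higher and 0 lower, beside 15.0% of all genes higher and 7.76% lower, and 0 were called by DESeq2 or limma-voom. Hspa8, the constitutive HSC70 chaperone, had the smallest p (1735, 2100 and 1968 CPM in KO and 1560, 1480 and 1556 CPM in WT libraries; edgeR adjusted p = 0.133). Hspa1a, the stress-inducible HSP70 gene, likewise named with its values known, was at 4.79, 1.59 and 2.61 CPM in KO and 1.8, 2.66 and 2.76 CPM in WT libraries. KO replicate 1 was the highest of the 6 for Hspa1a, but KO replicate 3 lay within the range of the WT libraries. Of the 9 tested, 0 had the order of Fosb, Egr1, Ier2 and Ier3, beside 9.11% of all genes tested. KO replicates 2 and 3 lay below all other libraries for 3 of the 9, beside 30.0% of all genes tested. In the fit without KO replicate 1, 3 of this list were higher and 3 lower, beside 23.6% and 26.0% of all genes.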

How the data were processed

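RNA of 6 libraries, 3 labelled KO and 3 labelled WT by their titles, was captured on beads as mRNA and sequenced on an Illumina instrument, per the labels' protocols. The submitters' processing notes name fastp 0.18.0 and GRCm39, while positions in the table match GRCm38; coordinates printed here are RefSeq's for GRCm38.p6. No source used here names the aligner, the counting program or the strand setting. The authors deposited estimated counts per gene, which were rounded to whole counts, TPM and FPKM values (FPKM was not used), and DESeq2 log2 fold changes with p-values and q-values, per the file headers.

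Genes were kept by filterByExpr (minimum count 10), which left 11424 of 15469. Counts were scaled with TMM factors and compared in edgeR 4.0.16 under R 4.3.3 by its robust quasi-likelihood test, with group as the only term, Benjamini-Hochberg adjustment over all genes and calls at 0.05. Differences are KO minus WT. Alternatives used DESeq2 1.42.0, limma 3.58.1 and mgcv 1.9.3; smooth GC and length terms covered 98.5% of genes tested.

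The members and gene lists were chosen with earlier results of these data known. The text names the 10 members, Spi1 and Fosl1, up to 3 called genes per list, by size of change among those averaging 1 CPM or more (with none called, the smallest p), and the 3 genes most correlated with Fos, Jun and Atf3; the text says where a gene was picked with its values known. Every pair of libraries differed beyond sampling noise (chi-square per degree of freedom of at least 6.55). Replicate numbers did not pair the samples.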

Additional observations from a re-analysis of the deposited data

How the results depend on the processing

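No member was called over 6 libraries by edgeR with RLE or upper-quartile factors, without a filter on low counts, over genes averaging 10 CPM or more (Ier3 is not in that fit), with the GC and length correction or at an adjusted p under 0.01, nor by limma-voom or limma on TPM. DESeq2 called 1. Leaving out single libraries gave 0 to 6 called members, and leaving out KO replicate 1 with the GC and length correction gave 7. Of all genes, 379 were called. They numbered 231 over genes averaging 10 CPM or more, 601 with the GC and length correction and 1344 by DESeq2. On TPM with pseudocounts of 1 and 0.1 they numbered 895 and 1028. At an adjusted p under 0.01 they numbered 15. Without KO replicate 1, 5793 genes were called, and 6005 with the correction added. Leaving out any other single library left 5 to 15 called genes. The listed pathway genes called numbered 10, and 6 with upper-quartile factors, 21 by DESeq2 and 16 on TPM with a pseudocount of 0.1. They numbered 0 at an adjusted p under 0.01 and 0 to 66 with single libraries left out, 66 being without KO replicate 1. Without KO replicate 1 and with the correction they numbered 80. Of all genes, 3.32% were called over the 6 libraries by edgeR and 10.8% of those with an adjusted p by DESeq2. Without KO replicate 1, 49.6% of all genes were called, and 51.4% with the correction added. On TPM with a pseudocount of 1, limma called Batf3 lower and Mapkapk2 and Hspa8 higher (adjusted p = 0.0375, 0.0392 and 0.0318). The cause of these shifts was not tested.

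The replicate numbers do not pair the libraries by the labels. Deviations of same-numbered libraries correlated at -0.16, 0.25 and -0.27, and 2 of 6 libraries correlated best with their own number. With the replicate block 0 genes were called in all, 0 members and 0 listed pathway genes, and with the replicate block and the GC and length correction 18 genes, 0 members and 1 listed gene.

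Of the 10 members, the log2 differences of Fos, Fosb, Jund, Atf3 and Ier2 kept their sign in every setting run. In size, Fosb (-0.63) was at -3.16 with the replicate block, -3.02 with it and the correction, -3.13 by limma-voom, -1.31 and -2.52 on TPM, and -5.01 (without KO replicate 1) to -0.0813 with single libraries left out. Fosl2 (0.12) was at -0.00707 with the GC and length correction, -0.0186 with it and the replicate block, -0.0218 to 0.177 with single libraries left out and -0.16 without that library and with the correction. Jun (0.04) was at -0.0642 with the correction, -0.0642 with it and the replicate block, -0.0587 with it and without KO replicate 1, and -0.00598 (without KO replicate 3) to 0.0573 with single libraries left out. Junb (-0.13) was at 0.0217 and 0.0219 on TPM with pseudocounts of 1 and 0.1. Egr1 (0.01) was at -0.00428 with RLE factors, -0.00674 by DESeq2, -0.77 by limma-voom, -0.42 and -0.58 on TPM with pseudocounts of 1 and 0.1, -0.82 with the replicate block, -0.0749 with the correction, -0.90 with both, -1.90 with the correction and without KO replicate 1, and -1.79 (without KO replicate 1) to 0.431 with single libraries left out. Ier3 (-0.04) was at 0.0223 and 0.0184 on TPM with pseudocounts of 1 and 0.1, and at -0.507 (without KO replicate 1) to 0.14 with single libraries left out. Spi1 was at 0.0482 and 0.0483 on TPM. Egr3 (1.03) was at -0.12 with the replicate block, -0.16 with it and the correction, -1.44 with the correction and without KO replicate 1, -0.094 by limma-voom, and -1.35 (without KO replicate 1) to 1.5 with single libraries left out. Nr4a1 was at -1.49 to 0.0564 with single libraries left out. Depth limits Fosb in KO replicates 2 and 3 and Fosl1 in all libraries.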

Other observations

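The other immediate early genes Ccn1 and Ccn2 separated KO replicates 2 and 3 from the rest in the opposite direction to Fos. The share of all genes with this direction was not counted. These genes were chosen after their values were seen. Ccn1 and Ccn2, matricellular proteins and common targets of the serum response factor and of YAP, had 0.385, 6.47 and 7.66 CPM and 0.991, 17.4 and 20 CPM in the KO libraries, against 1.1, 0.578 and 0.481 CPM and 2.5, 1.5 and 1.8 CPM in the WT libraries. Neither was called over the 6 libraries by edgeR (adjusted p = 0.198 and 0.191). DESeq2 called both higher (adjusted p = 0.0408 and 0.0227), beside 7.12% of all genes with an adjusted p. Without KO replicate 1 edgeR also called both (log2 differences of 3.29 and 3.28, adjusted p = 0.000115 and 1.74e-05), beside 23.6% of all genes higher. The summed level of 4 fibroblast markers, none of them at 0 in all libraries, was 1.87 CPM in KO replicate 1, 20 to 31.5 CPM in KO replicates 2 and 3, and 4.99 to 7.85 CPM in the WT libraries. Its part in the levels of Ccn1 and Ccn2 was not tested.

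Klf2, a Krüppel-like factor that restrains macrophage activation, had 37, 12.6 and 13.8 CPM in the KO libraries and 8.9, 8.95 and 8.53 CPM in the WT libraries. Every KO library lay above every WT library, and KO replicate 1 was the highest. Groups that do not overlap were seen in 31.0% of all genes tested. It was not called by edgeR (log2 difference 1.26, adjusted p = 0.177).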
